A study of Rattus norvegicus with 16 samples.

Results

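The genes described here are the platelet-derived growth factor (PDGF) system of the glomerulus and a few identity markers of the mesangial cell, the contractile cell that holds the capillary loops together. They were chosen by name as rows of the deposited count table: the ligands Pdgfa, Pdgfb, Pdgfc and Pdgfd, the receptors Pdgfra and Pdgfrb, and the markers Gata3, Thy1 and Cspg4. These were 9 of 36351 genes in the table, and all 9 were among the 17061 genes with enough reads to be tested. Read counts of the 9 genes lay between 63 and 19244 per library.

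The study sequenced RNA of glomeruli, the filtering units of the kidney, taken on day 11 from rats with a toxin-induced nephrotic syndrome and from controls, with 4 libraries in each of 4 groups. PAN+MP rats received puromycin aminonucleoside (PAN), a podocyte toxin, at 50 mg/kg into the tail vein and then methylprednisolone, a glucocorticoid, at 15 mg/kg daily by intraperitoneal injection. PAN+Pio rats received the same toxin and then pioglitazone, which activates the nuclear receptor PPAR gamma, by mouth every day at 10 mg/kg. PAN rats received the toxin and vehicle by mouth, and Sham rats were healthy, sham-treated controls that also received vehicle by mouth. The model starts from podocyte injury, so mesangial genes are read here in a disease that does not begin in the mesangium. The study asked which disease changes each drug ameliorates. The libraries held 22802109 to 32571877 counted reads. Podocyte markers, 12 genes, summed to between 21924 and 37322 CPM (read counts scaled to a common library size) in the 16 libraries, and none of the 12 was at 0 in any group. Library numbers follow the order of the columns within a group and serve as names only. The design gives 4 rats, read here as 4 for each group, and the columns do not tie a library to a rat.

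PDGF ligands are secreted as dimers and bind the receptor tyrosine kinases PDGF receptor alpha and PDGF receptor beta. In the developing mouse glomerulus, PDGF-B from endothelial cells recruits the cells that become mesangium and that carry PDGF receptor beta. PDGF-A and PDGF-B are released in active form, whereas PDGF-C and PDGF-D are secreted with a CUB domain that a protease must remove. PDGF-B and PDGF-D drive mesangial cell division in rats, and Thy1 is the antigen against which mesangial nephritis is raised in that species. Gata3 is a transcription factor of mesangial cells and also of T cells and the collecting duct, and Cspg4 encodes NG2, a proteoglycan of pericytes and mesangial cells. In whole glomeruli, fewer cells of a type and less RNA per cell cannot be told apart.

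The promoters of the 4 genes that changed in at least 1 comparison, Pdgfd, Pdgfb, Gata3 and Cspg4, are shown because the drugs act through DNA-binding nuclear receptors. RefSeq's promoter table of the build GRCr8 held 7 of the 9 genes, with Pdgfrb and Thy1 not among them. Each window runs from 250 bases before to 50 bases after the listed start site. Capitals mark the GC box (GGGCGG), the CCAAT box (CCAAT) or the TATA box (TATAAA), and both the glucocorticoid receptor half-site (AGAACA) and the half-site of PPAR and its partner RXR (AGGTCA) were searched as well, each on both strands. No 2 of the matches below overlapped.
Pdgfd, GRCr8 chr8:11773258-11773557, plus strand: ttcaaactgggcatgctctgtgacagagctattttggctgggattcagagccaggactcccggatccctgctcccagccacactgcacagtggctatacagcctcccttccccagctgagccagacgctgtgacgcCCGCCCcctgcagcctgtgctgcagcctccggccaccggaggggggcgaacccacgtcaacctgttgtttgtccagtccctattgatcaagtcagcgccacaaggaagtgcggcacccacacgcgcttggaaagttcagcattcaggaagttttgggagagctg
Pdgfb, GRCr8 chr7:113438294-113438593, minus strand: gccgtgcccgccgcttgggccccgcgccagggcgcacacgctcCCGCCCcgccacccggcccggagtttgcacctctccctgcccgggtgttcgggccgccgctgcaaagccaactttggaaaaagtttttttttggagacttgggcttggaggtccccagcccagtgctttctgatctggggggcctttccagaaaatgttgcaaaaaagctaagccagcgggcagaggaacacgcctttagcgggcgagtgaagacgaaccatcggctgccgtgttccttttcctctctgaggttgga
Gata3, GRCr8 chr17:73553298-73553597, plus strand: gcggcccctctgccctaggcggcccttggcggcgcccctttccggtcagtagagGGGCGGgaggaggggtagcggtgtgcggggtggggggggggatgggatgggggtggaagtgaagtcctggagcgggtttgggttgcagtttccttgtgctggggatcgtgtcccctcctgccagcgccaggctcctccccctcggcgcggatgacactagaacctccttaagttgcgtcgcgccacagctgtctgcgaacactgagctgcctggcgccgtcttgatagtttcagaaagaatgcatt
Cspg4, GRCr8 chr8:66160692-66160991, plus strand: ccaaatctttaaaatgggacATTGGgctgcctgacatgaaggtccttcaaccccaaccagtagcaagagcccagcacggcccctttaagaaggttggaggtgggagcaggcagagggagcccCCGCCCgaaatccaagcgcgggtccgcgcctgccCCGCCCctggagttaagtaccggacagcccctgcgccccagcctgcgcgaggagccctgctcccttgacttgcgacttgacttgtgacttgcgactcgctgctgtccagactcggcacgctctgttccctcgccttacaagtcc
The Pdgfd, Pdgfb and Gata3 windows each held 1 GC box, and the Cspg4 window held 2 GC boxes and 1 CCAAT box. A GC box stood in 33.1% and a CCAAT box in 37.5% of the 33469 promoters of this length in the table. None of the 4 windows held a TATA box, a glucocorticoid receptor half-site or a PPAR and RXR half-site, which stood in 14.2%, 20.7% and 16.2% of all promoters. A match, or its lack, describes the letters of this window only.

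Pdgfd, the ligand of PDGF receptor beta that is secreted in latent form, was lower with either drug than in untreated disease, and also lower than in healthy glomeruli. It stood at 12.7, 9.30, 12.0 and 12.4 CPM in the 4 PAN+MP libraries, at 13.7, 12.0, 15.0 and 14.9 CPM in PAN+Pio, at 21.6, 22.6, 23.3 and 17.9 CPM in PAN and at 21.8, 20.7, 25.2 and 15.6 CPM in Sham. Every library of both drug groups lay below every PAN and every Sham library. The group means were 11.6 ± 1.55 CPM in PAN+MP, 13.9 ± 1.41 CPM in PAN+Pio, 21.3 ± 2.42 CPM in PAN and 20.8 ± 4.01 CPM in Sham (SD, n = 4 each). Against PAN, the log2 fold change was -0.88 ± 0.14 (SE) in PAN+MP, with an adjusted p of 8.56e-04 by edgeR's quasi-likelihood method, adjusted after Benjamini-Hochberg over all tested genes. In PAN+Pio it was -0.62 ± 0.14 with an adjusted p of 0.0236.

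Pdgfd did not differ detectably between PAN and Sham, at a log2 difference of 0.04 with a 95% interval of -0.27 to 0.34. Against Sham it was lower by a log2 fold change of -0.85 ± 0.14 in PAN+MP (adjusted p of 0.00355) and of -0.59 ± 0.14 in PAN+Pio (adjusted p of 0.0303). The 2 drug groups are set against the same PAN and Sham libraries in these comparisons. The falls in PAN+MP passed the test with any 1 library left out. The fall in PAN+Pio against PAN did not pass without PAN library 1, PAN library 2, PAN library 3, PAN+Pio library 1 or PAN+Pio library 2, with adjusted p between 0.0554 and 0.0938. The fall in PAN+Pio against Sham did not pass without Sham library 1, Sham library 3 or any 1 of the 4 PAN+Pio libraries, with adjusted p between 0.0554 and 0.0867. Nor did it pass with the tubule score described below as covariate (-0.52 ± 0.15, adjusted p of 0.0778). Without Sham library 3, PAN library 2 and PAN library 3, left out together after the data had been seen, Pdgfd in PAN+Pio was -0.50 ± 0.17 against PAN (adjusted p of 0.252) and -0.49 ± 0.15 against Sham (adjusted p of 0.0698).

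Pdgfb, the endothelial ligand of PDGF receptor beta, was lower with methylprednisolone. Its levels were 70.5, 59.1, 64.1 and 64.1 CPM in PAN+MP, 99.9, 106, 73.0 and 103 CPM in PAN+Pio, 98.6, 126, 75.6 and 109 CPM in PAN and 121, 121, 122 and 74.4 CPM in Sham. The PAN+MP libraries all lay below the libraries of the other 3 groups, and the other 3 groups overlapped each other. The log2 fold change in PAN+MP was -0.67 ± 0.17 (SE) against PAN, with an adjusted p of 0.0216, and -0.77 ± 0.17 against Sham, with an adjusted p of 0.0121. The first of these did not pass without PAN library 2, PAN library 4, PAN+MP library 2, PAN+MP library 3 or PAN+MP library 4, with adjusted p between 0.0543 and 0.0848, while the second passed with any 1 library left out and was -0.61 ± 0.17 (adjusted p of 0.061) with the tubule score as covariate. Without Sham library 3, PAN library 2 and PAN library 3 together, the first was -0.68 ± 0.18 with an adjusted p of 0.0573.

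In PAN+Pio, Pdgfb had a log2 fold change of -0.10 against PAN, with a 95% interval of -0.46 to 0.26. Set directly against each other, Pdgfb averaged 95.6 ± 15.3 CPM in PAN+Pio and 64.5 ± 4.70 CPM in PAN+MP (SD, n = 4 each). That log2 fold change was 0.57 ± 0.17 (SE), with an unadjusted p of 0.0041 and an adjusted p of 0.208, so a difference between the drugs did not pass across all genes. It was just past the threshold, with an adjusted p of 0.0487, in a fit of these 2 groups alone.

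Pdgfa and Pdgfc did not pass the test in any comparison. Pdgfa, a ligand of PDGF receptor alpha, averaged 14.4 ± 0.92 CPM in PAN+MP, 14.8 ± 0.54 CPM in PAN+Pio, 17.0 ± 1.83 CPM in PAN and 15.1 ± 1.87 CPM in Sham (SD, n = 4 each). Both drug groups lay below all PAN libraries, by log2 fold changes of -0.24 ± 0.10 and -0.20 ± 0.10 (SE) with adjusted p of 0.179 in PAN+MP and 0.363 in PAN+Pio. Pdgfc, the other latent ligand, overlapped between all groups. It ranged over 5.69 to 6.75 CPM in PAN+MP, 5.53 to 7.93 CPM in PAN+Pio, 2.34 to 8.38 CPM in PAN and 3.39 to 7.21 CPM in Sham. The 95% interval of its log2 fold change in PAN against Sham, -0.42 to 0.88, includes changes of either sign.

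**Figure D1:**
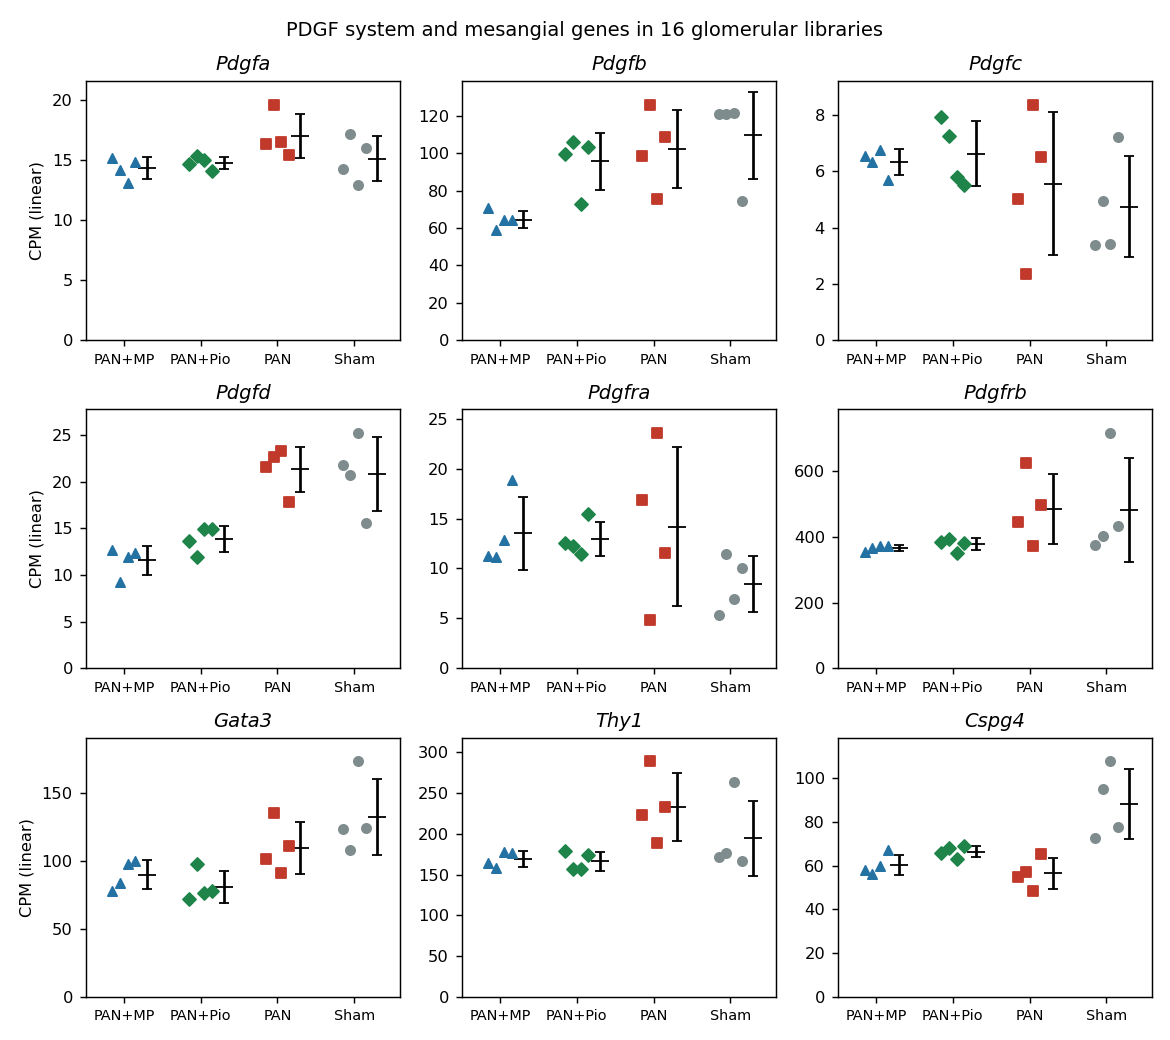
Level of each gene in CPM (vertical axis, linear, from 0) in the 4 libraries of PAN+MP, PAN+Pio, PAN and Sham (points), with the mean and SD of each group as a bar beside them. Pdgfd is lower in all 8 drug-treated libraries than in all PAN and Sham libraries, Pdgfb is lowest in PAN+MP, and Cspg4 is higher in all Sham libraries than in all others.

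Pdgfrb, the receptor that marks mesangial cells and pericytes, did not pass in any comparison. Its levels were 355, 365, 372 and 373 CPM in PAN+MP, 384, 394, 352 and 383 CPM in PAN+Pio, 445, 626, 372 and 499 CPM in PAN and 375, 402, 717 and 434 CPM in Sham. The drug-treated libraries were close together, and Sham library 3 and PAN library 2 stood above the rest. The log2 fold change was -0.41 ± 0.18 (SE, adjusted p of 0.197) in PAN+MP and -0.36 ± 0.18 (adjusted p of 0.341) in PAN+Pio against PAN. In PAN against Sham it was 0.01 ± 0.18, with a 95% interval of -0.37 to 0.39, and its sign was negative with other size factors, with DESeq2 and with library totals alone. With Sham library 3, PAN library 2 and PAN library 3 left out, an alternative chosen after the data had been seen, Pdgfrb in PAN+MP against PAN was -0.36 ± 0.09 on the log2 scale, at an adjusted p of 0.0316.

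Pdgfra, the receptor for PDGF-A and PDGF-C, was measured at 11.3, 11.1, 12.8 and 18.9 CPM in PAN+MP, 12.6, 12.3, 11.5 and 15.4 CPM in PAN+Pio, 16.8, 4.86, 23.6 and 11.5 CPM in PAN and 5.37, 11.5, 6.93 and 10.1 CPM in Sham. All PAN+Pio libraries were above all Sham libraries, though narrowly, and the PAN libraries held both the highest and the lowest value. The mean was 14.2 ± 7.93 CPM in PAN and 8.45 ± 2.79 CPM in Sham (SD, n = 4 each), a log2 difference of 0.75 ± 0.35 (SE; adjusted p of 0.148). Without PAN library 2 it was 1.02 ± 0.27 with an adjusted p of 0.0143. With a proximal tubule score as covariate, Pdgfra in PAN+MP against PAN was 0.01 ± 0.17, where without it the value was -0.07 ± 0.35.

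Pdgfra levels followed the amount of proximal tubule RNA in a library. The tubule score, the mean log2 CPM of 15 tubule transporters and enzymes, had medians of 7.21 in PAN+MP, 7.15 in PAN+Pio, 7.30 in PAN and 6.44 in Sham, and it was lowest in PAN library 2 and highest in PAN library 3. Over the 16 libraries, Pdgfra and the score had Pearson's r of 0.923 (permutation p = 1e-05, the smallest that 100000 permutations can give, adjusted 4.5e-04 over 45 relations) and Spearman's rho of 0.738 (permutation p = 0.00178, adjusted 0.0267). Without Sham library 3 and PAN library 2, the farthest from the median, r was 0.874, and after removal of group means it was 0.902. Over the 13 libraries with a score above 6.5, r was 0.755. For Pdgfc, r was 0.837 (permutation p = 2.6e-04, adjusted 0.00292) and rho 0.488 (permutation p = 0.0576, adjusted 0.173), with r of 0.639 without those 2 libraries and 0.279 over the 13. Pdgfrb and Gata3 had r of -0.602 (permutation p = 0.0156, adjusted 0.0393) and -0.627 (permutation p = 0.00949, adjusted 0.0308) with the score. Their rho of -0.268 and -0.385 did not pass, and r was 0.136 and -0.284 without those 2 libraries. Marker scores of other cells also moved with Pdgfc, Pdgfra and others of the genes described here after removal of group means. For Pdgfc, r was -0.899 with the endothelial and 0.77 with the distal nephron score, beside 0.851 with the tubule score. Pdgfra had r of 0.776 with the distal nephron, 0.717 with the interstitial fibroblast and -0.683 with the endothelial score. The endothelial score had r of 0.72 with Pdgfrb, 0.75 with Thy1, 0.66 with Gata3 and 0.724 with Pdgfb. With a score of other mesangial and pericyte genes, r was 0.695, 0.63, 0.515 and 0.041 for the same genes. With the parietal epithelial score it was -0.708, -0.693, -0.69 and -0.41. Pdgfd had r of 0.698 with the macrophage score. The part of tubule carry-over in the levels of these genes beyond these values was not tested.

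**Figure D2:**
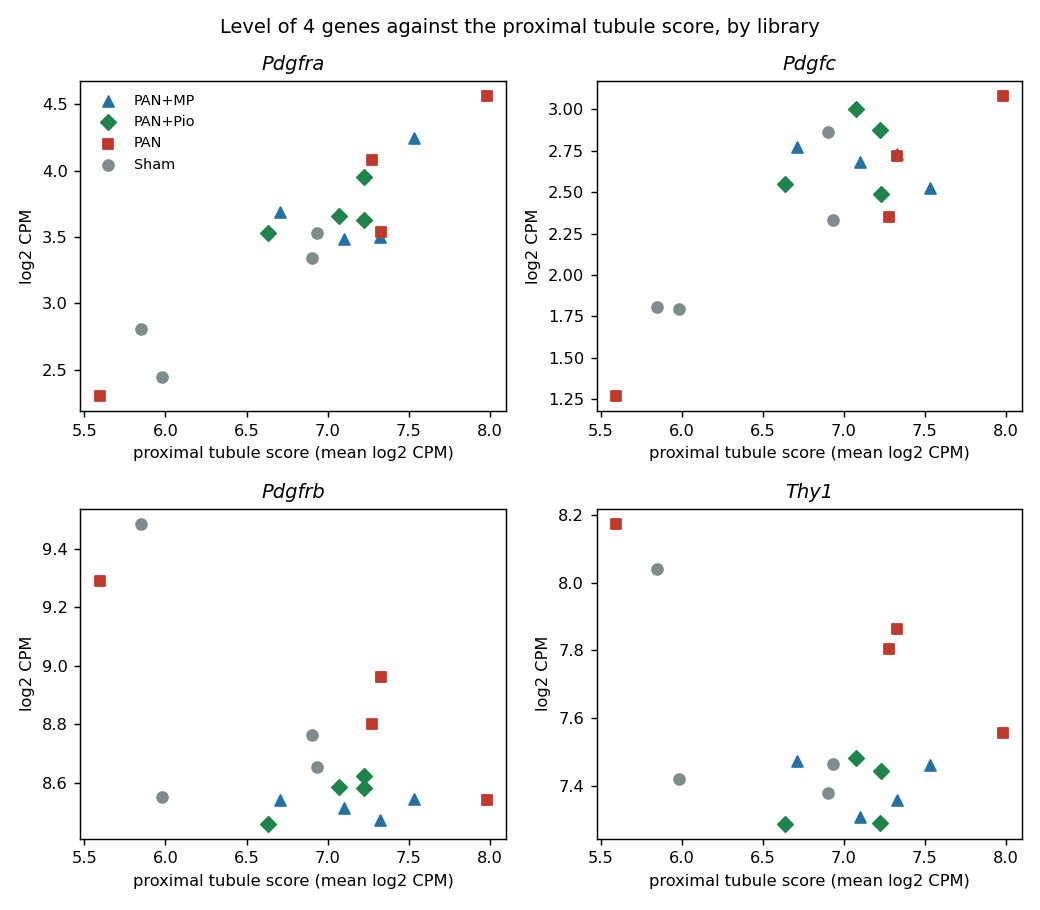
Level of Pdgfra, Pdgfc, Pdgfrb and Thy1 (vertical axes, log2 CPM) against the proximal tubule score (horizontal axes, mean log2 CPM of 15 markers), with 1 point for each of the 16 libraries and a colour and shape per group. Pdgfra climbs over the whole range of the score, while the Pdgfrb and Thy1 panels are set by a few libraries of low score, among them PAN library 2 and Sham library 3.

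Cspg4 was lower in PAN than in Sham. It stood at 58.0, 56.2, 59.9 and 67.0 CPM in PAN+MP, 65.7, 67.9, 63.0 and 69.05 CPM in PAN+Pio, 55.0, 57.0, 48.4 and 65.5 CPM in PAN and 72.7, 94.9, 108 and 77.4 CPM in Sham. Every Sham library lay above every library of the other 3 groups, which overlapped each other. Cspg4 fell to 56.5 ± 7.06 CPM in PAN, against 88.2 ± 16.1 CPM in Sham (SD, n = 4 each). The log2 fold change was -0.64 ± 0.12 (SE; adjusted p of 0.00124 by edgeR), and it passed with any 1 library left out.

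Neither drug moved Cspg4 detectably from its PAN level. The log2 fold change was 0.09 ± 0.12 (SE, adjusted p of 0.724) in PAN+MP and 0.23 ± 0.12 (adjusted p of 0.349) in PAN+Pio against PAN, with 95% intervals of -0.15 to 0.34 and -0.01 to 0.48. Against Sham, Cspg4 was lower in PAN+MP, at -0.55 ± 0.12 on the log2 scale (adjusted p of 0.00972). In PAN+Pio it was -0.41 ± 0.12 with an adjusted p of 0.0527, just outside the threshold, and it passed with DESeq2 (adjusted p of 0.0134), with other size factors (0.0453) and with library totals alone (0.0485).

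Gata3 was lower than in healthy glomeruli with either drug. It was measured at 77.6, 84.1, 97.6 and 100.2 CPM in PAN+MP, 71.7, 97.6, 76.1 and 77.9 CPM in PAN+Pio, 102, 136, 90.8 and 111 CPM in PAN and 123, 108, 173 and 124 CPM in Sham. All drug-treated libraries lay below all Sham libraries and overlapped the PAN libraries. The log2 fold change against Sham was -0.56 ± 0.15 (SE, adjusted p of 0.0283) in PAN+MP, -0.71 ± 0.15 (adjusted p of 0.0156) in PAN+Pio and -0.27 ± 0.15 (adjusted p of 0.218) in PAN. The PAN+MP value did not pass without Sham library 1, Sham library 3, PAN+MP library 1 or PAN+MP library 2 (adjusted p of 0.057 to 0.0747), nor with the tubule score as covariate (-0.38 ± 0.14, adjusted p of 0.138). The PAN+Pio value did not pass without PAN+Pio library 1 or PAN+Pio library 3 (adjusted p of 0.0604 and 0.052).

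Thy1 was highest in untreated disease without passing the test in any comparison. Its levels were 164, 158, 178 and 176 CPM in PAN+MP, 179, 157, 156 and 174 CPM in PAN+Pio, 223, 289, 188 and 233 CPM in PAN and 171, 177, 263 and 167 CPM in Sham. All drug-treated libraries lay below all PAN libraries, and Sham library 3 was apart from the other Sham libraries. Against PAN, the log2 fold change was -0.47 ± 0.14 (SE, adjusted p of 0.053) in PAN+MP and -0.49 ± 0.14 (adjusted p of 0.0713) in PAN+Pio. Both passed with DESeq2, with adjusted p of 0.0218 and 0.0249, with the tubule score as covariate, with 0.021 and 0.0185, and without PAN library 3, with 0.0272 and 0.0458. Neither passed in the other 7 of 8 fits with 1 library left out, with adjusted p up to 0.183 in PAN+MP and 0.225 in PAN+Pio. Nor did either pass with other size factors or library totals alone. In PAN against Sham the value was 0.26 ± 0.14 (adjusted p of 0.202), and 0.43 ± 0.11 with an adjusted p of 0.0175 without Sham library 3.

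Counted over the 9 genes, 1 was lower and none higher in PAN against Sham, where 18.9% of all tested genes were called, 8.52% as lower. In PAN+MP against PAN 2 were lower and none higher, beside 8.62% of all genes called and 5.31% called lower, and in PAN+Pio against PAN 1 was lower and none higher, beside 3.68% called and 2.85% called lower. Against Sham, 4 were lower in PAN+MP, beside 12.7% of all genes called and 6.72% called lower, and 2 in PAN+Pio, beside 5.08% called and 2.09% called lower, with none higher in either. The median log2 fold change of the 9 was 0.03 in PAN against Sham, -0.29 in PAN+MP against PAN and -0.20 in PAN+Pio against PAN, where the median of all tested genes was within 0.01 of 0. The libraries of the groups compared did not overlap for 1 of the 9 genes in PAN against Sham, beside 20.5% of all tested genes, for 4 in PAN+MP against PAN, beside 15.8%, and for 3 in PAN+Pio against PAN, beside 10.7%. They did not overlap for 5 in PAN+MP against Sham, beside 20.6%, for 4 in PAN+Pio against Sham, beside 13.2%, and for 1 in PAN+Pio against PAN+MP, beside 6.97%.

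Between the drugs, PAN+Pio against PAN+MP, none of the 9 passed edgeR's test, where 0.633% of all genes did. Pdgfb alone had an unadjusted p under 0.05, and DESeq2 called 0. For the other genes, the 95% interval of the log2 fold change between the drugs was narrowest for Pdgfa, at -0.18 to 0.26, and widest for Pdgfra, at -0.80 to 0.67. The authors' deposited table, at an adjusted p under 0.05, called 10 of the 54 pairs of gene and comparison, and the 10 called here were the same, each in the same direction.

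**Figure D3:**
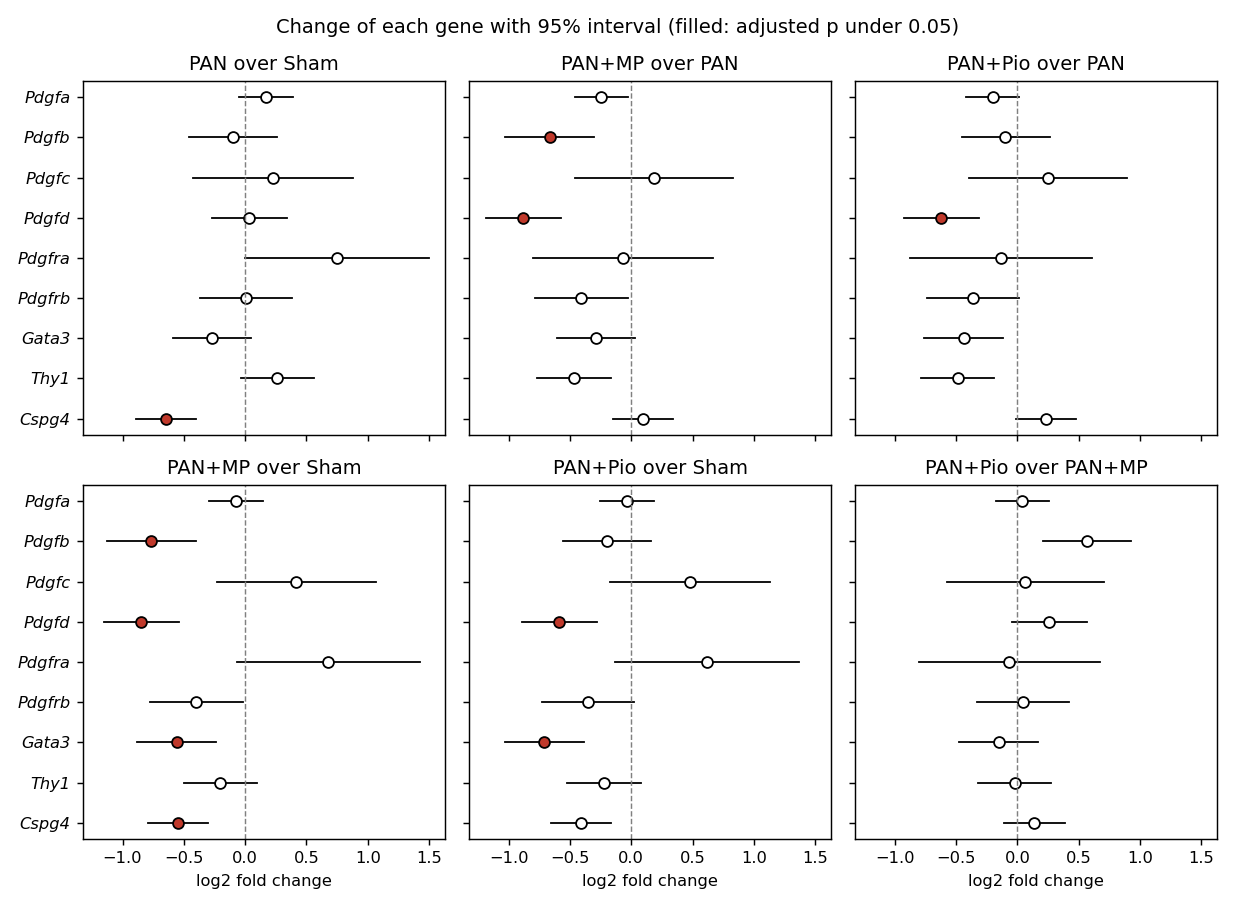
Log2 fold change of each gene (horizontal axes) with its 95% interval in the 6 comparisons, from 1 fit to 16 libraries, where filled points have an adjusted p under 0.05. All 10 filled points lie left of 0, and Pdgfd is filled in each comparison of a drug group with PAN or Sham.

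Pdgfrb varied together with Thy1 and with Gata3 from library to library, and its relation with Cspg4 did not pass over the 16 libraries. Pdgfrb and Thy1 had Pearson's r of 0.902 over the 16 libraries (permutation p = 8e-05, adjusted 0.00165 over 45 relations) and Spearman's rho of 0.674 (permutation p = 0.00547, adjusted 0.0492). The r was 0.768 without Sham library 3 and PAN library 2 and 0.936 after removal of group means. For Pdgfrb and Gata3, r was 0.81 (permutation p = 1.1e-04, adjusted 0.00165) and rho 0.765 (permutation p = 8.2e-04, adjusted 0.0234), with r of 0.708 without Sham library 3 and PAN+Pio library 1 and 0.826 after removal of group means. For Pdgfrb and Cspg4, r was 0.424 (permutation p = 0.0962, adjusted 0.149) and rho 0.379 (permutation p = 0.147, adjusted 0.281), with r of -0.038 without Sham library 2 and Sham library 3. Gata3 and Thy1 had r of 0.66 (permutation p = 0.00553, adjusted 0.0283) but rho of 0.491 (permutation p = 0.0546, adjusted 0.173), and r of 0.298 without Sham library 3 and PAN library 2. Thy1 and Cspg4 had r of 0.119 (permutation p = 0.668, adjusted 0.699) and rho of -0.112 (permutation p = 0.68, adjusted 0.757), and Gata3 and Cspg4 r of 0.552 (permutation p = 0.027, adjusted 0.058) and rho of 0.391 (permutation p = 0.133, adjusted 0.281). After removal of group means, r with Cspg4 was 0.701 for Pdgfrb, 0.703 for Thy1 and 0.54 for Gata3, values given without a test. Sham library 3 held the highest Sham level of Pdgfrb, Thy1, Gata3 and Cspg4 alike.

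Pdgfra and Pdgfc had a positive Pearson's r that rank correlation did not bear out. It was 0.767 (permutation p = 7.8e-04, adjusted 0.00702), but rho was 0.474 (permutation p = 0.0662, adjusted 0.186) and r was 0.459 without Sham library 1 and PAN library 2. For Pdgfrb and Pdgfc, r was -0.646 (permutation p = 0.0131, adjusted 0.0369) and rho -0.376 (permutation p = 0.15, adjusted 0.281), and the relation rested on Sham library 3 and PAN library 2, without which r was 0.011. For Pdgfra and Pdgfrb, r was -0.543 (permutation p = 0.0299, adjusted 0.0611) and rho -0.276 (permutation p = 0.301, adjusted 0.42), and r was -0.004 without the same libraries. Of the 36 pairs of the 9 genes, 15 had an adjusted p under 0.05 for Pearson's r, 9 of them positive and 6 negative. By Spearman's rho 4 pairs passed, all positive: Pdgfb with Pdgfd, Pdgfb with Pdgfrb, Pdgfrb with Gata3 and Pdgfrb with Thy1. For Pdgfb with Pdgfd, Pearson's r fell from 0.688 to 0.321 after removal of group means, and for Pdgfb with Pdgfrb from 0.594 to 0.47. Libraries were permuted across the groups, so differences between groups that both genes share also enter these p-values. Each pair shares the library and its mix of cells.

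**Figure D4:**
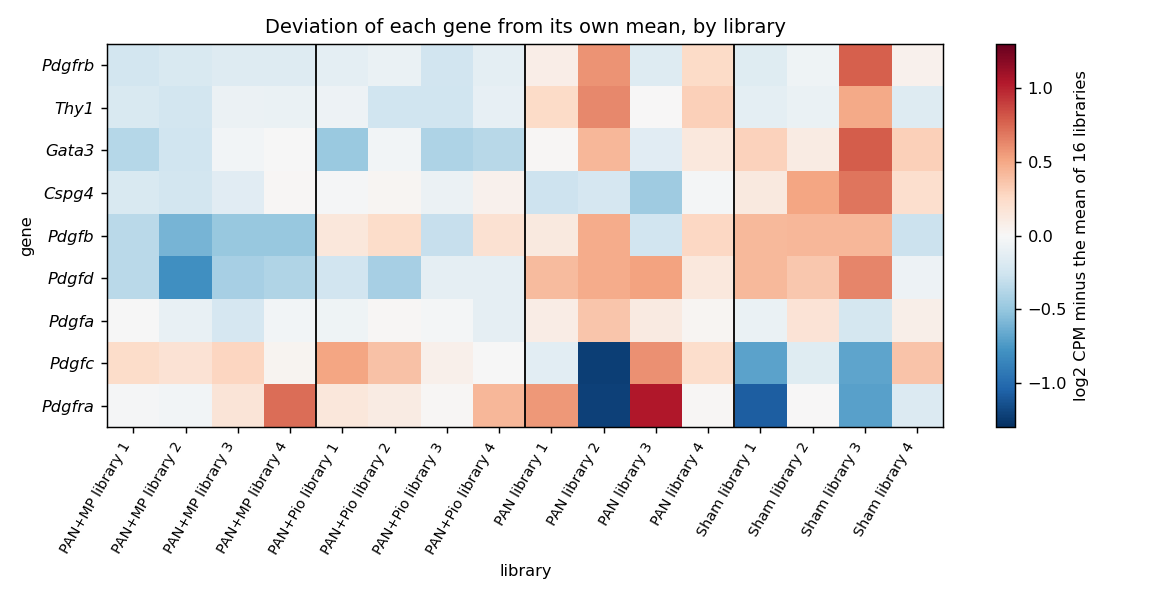
Log2 CPM of each gene (rows) in each library (columns, black lines between the groups) minus the gene's mean over 16 libraries, from -1.22 to 1.04. PAN library 2 and Sham library 3 are high for Pdgfrb, Thy1 and Gata3 and low for Pdgfc and Pdgfra, and PAN library 3 is high for Pdgfra.

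Among all tested genes, those most like each member over the 16 libraries, by Pearson's r of log2 CPM, were named as a description. For Pdgfrb they were Cygb, Kdm2b and Ndufa4l2, with r of 0.944, 0.935 and 0.931. For Gata3 they were Tbc1d2b, the mural cell receptor gene Notch3 and Wipf1, with r of 0.945, 0.931 and 0.912, and for Thy1 they were Socs5, Tubgcp2 and Coro1c, with r of 0.93, 0.915 and 0.905. For Pdgfd they were the connexin gene Gjc1, Heph and Rassf3, with r of 0.94, 0.919 and 0.908, and for Pdgfb they were Ccnjl, Stx2 and Bbc3, with r of 0.943, 0.941 and 0.906. Pdgfra was closest to Clrn3, Phyh and Chdh, with r of 0.946, 0.94 and 0.937, and Pdgfc to Esrrg, Pklr and Ank3, with r of 0.956, 0.936 and 0.934. The closest to Cspg4 and Pdgfa were less alike, with r of 0.901, 0.872 and 0.862 for LOC691161, Tead4 and Slc9a3r2, and 0.815, 0.802 and 0.798 for Cenpn, Sept8 and Syndig1.

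Other mesangial and pericyte genes went in both directions. Of 22 tested, 7 rose and 3 fell in PAN against Sham, where 18.9% of all tested genes were called. Their median log2 fold change was 0.18, beside 0.01 over all genes. Tagln, the smooth muscle protein transgelin, was at 161 ± 35.0 CPM in PAN and 25.0 ± 8.67 CPM in Sham (SD, n = 4 each), a rise of 2.69 ± 0.25 (SE) on the log2 scale. Des, desmin, rose by 2.56 ± 0.21 and Cnn1, the smooth muscle protein calponin, by 1.92 ± 0.44, the last at only 1.18 CPM in PAN and 0.307 CPM in Sham. Desmin is also made by injured podocytes, so it is no mesangial measure alone.

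Under the drugs, 9 of these 22 genes fell and 1 rose in PAN+MP against PAN, with a median of -0.43, beside 8.62% of all tested genes called. In PAN+Pio against PAN 7 fell and 1 rose, with a median of -0.41, beside 3.68% called. Tagln fell by 2.03 ± 0.25 and Acta2, smooth muscle actin, fell by 1.17 ± 0.19 in PAN+MP (SE, n = 4). In PAN+Pio, Tagln fell by 2.17 ± 0.25 and Rgs5, a pericyte regulator of G protein signalling, fell by 0.95 ± 0.25. The summed level of the 23 listed genes in the table was 3012 to 3405 CPM in PAN+MP, 3161 to 4195 CPM in PAN+Pio, 4101 to 5748 CPM in PAN and 3251 to 4370 CPM in Sham.

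Among genes that process PDGF or bind it outside the cell, Plat passed the test in 3 comparisons. Of 15 tested, 1 rose and 1 fell in PAN against Sham, 1 rose in each drug group against PAN, and none fell there. The shares of all tested genes called were 18.9% in PAN against Sham, 8.62% in PAN+MP against PAN and 3.68% in PAN+Pio against PAN. Plat, tissue plasminogen activator, a protease that releases active PDGF-C, averaged 1322 ± 133 CPM in PAN+MP, 1150 ± 176 CPM in PAN+Pio, 848 ± 50.7 CPM in PAN and 1138 ± 104 CPM in Sham (SD, n = 4 each). It was lower in PAN than in Sham by a log2 fold change of -0.42 ± 0.11 (SE, adjusted p of 0.0165) and higher than in PAN by 0.64 ± 0.11 in PAN+MP (adjusted p of 0.0017) and 0.44 ± 0.11 in PAN+Pio (adjusted p of 0.0417). Sparc, a matrix protein that binds PDGF-B, rose by 0.40 ± 0.12 in PAN against Sham. Lrp1, an endocytic receptor that associates with PDGF receptor beta, was lower in PAN+MP than in Sham by -0.69 ± 0.15 on the log2 scale (adjusted p of 0.0119).

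Of 33 signalling proteins downstream of the receptors, all tested, 1 rose and 5 fell in PAN against Sham, with a median log2 fold change of -0.08. Over all tested genes, 18.9% were called in this comparison, 8.52% as lower, so the number called was near that share. Pik3cb, a catalytic subunit of phosphoinositide 3-kinase, fell by 0.59 ± 0.14 (SE), Nck1, an adaptor that binds the activated receptor, fell by 0.46 ± 0.11, and Fyn, a Src family kinase, fell by 0.40 ± 0.12. Against PAN, Gab1, a docking protein, rose by 0.34 ± 0.08 in PAN+MP as the only called gene of the list, beside 8.62% of all tested genes. In PAN+Pio against PAN none was called, beside 3.68%. Against Sham, 2 rose and 4 fell in PAN+MP, beside 12.7% of all tested genes called. In PAN+Pio 1 fell and none rose, beside 5.08% called. Nck1 was lower than in Sham in both drug groups as in PAN. Its log2 fold change was -0.45 ± 0.11 in PAN+MP and -0.60 ± 0.11 in PAN+Pio.

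Of 17 genes that dampen the receptors or their pathway, 3 fell and none rose in PAN against Sham, and 3 fell and none rose in each drug group against PAN. Of all tested genes, 18.9% were called in PAN against Sham, near the share in this list, and 8.52% were called lower. In PAN+MP against PAN 8.62% of all tested genes were called, 5.31% as lower, and in PAN+Pio against PAN 3.68%, with 2.85% as lower. In PAN, Cblb, a ubiquitin ligase, fell by 0.97 ± 0.19, Spry4, an inhibitor of Ras signalling, fell by 0.64 ± 0.18, and Spred2, another such inhibitor, fell by 0.56 ± 0.14 (SE, log2 scale, n = 4). In PAN+MP against PAN, Dusp6, a phosphatase of the kinase ERK, fell by 0.53 ± 0.12, Dusp1, a phosphatase of the same family, fell by 0.50 ± 0.15 and Spry1 fell by 0.45 ± 0.13. In PAN+Pio against PAN, Rgs4, which shortens G protein signals, fell by 1.15 ± 0.28, Spry1 fell by 0.54 ± 0.14 and Dusp6 fell by 0.50 ± 0.12. The PAN libraries are shared by these comparisons.

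Genes that cultured cells induce when given PDGF, a list that overlaps other growth factor responses, went both ways in PAN. Of 15 tested, 4 rose and 2 fell against Sham, beside 18.9% of all tested genes called. Among those called, Nr4a1, an immediate early nuclear receptor, was at 99.7 ± 9.94 CPM in PAN and 50.2 ± 15.0 CPM in Sham (SD, n = 4 each). Hbegf, a ligand of the EGF receptor, was at 13.6 ± 2.40 CPM in PAN and 26.5 ± 9.26 CPM in Sham. Against PAN, 4 fell in PAN+MP, beside 8.62% of all tested genes called, and 1 in PAN+Pio, beside 3.68%, and none rose in either. Fosl1, an AP-1 subunit, fell in both, with 0.145 CPM in PAN+MP and 0.218 CPM in PAN+Pio against 1.13 CPM in PAN, all levels of few reads. Nr4a1 fell by 1.20 ± 0.29 (SE, log2 scale) and Ccl2, a monocyte chemokine, fell by 1.09 ± 0.28 in PAN+MP.

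Markers of other cells that make PDGF or carry its receptors moved with some of these results. Macrophage markers, 10 in the table, summed to 62.0 to 133 CPM in PAN+MP, 76.7 to 120 CPM in PAN+Pio, 161 to 221 CPM in PAN and 91.9 to 138 CPM in Sham. Of 9 tested, 3 fell in each drug group against PAN, beside the lower Pdgfd in both and the lower Pdgfb in PAN+MP. In PAN against Sham 2 of the 9 markers rose, with a median log2 fold change of 0.73, where neither Pdgfd nor Pdgfb was called. None of the 9 markers was called in either drug group against Sham, where Pdgfd was lower in both and Pdgfb in PAN+MP. Endothelial markers, 12 in the table, summed to 6048 to 6223 CPM in PAN+MP, 5465 to 6577 CPM in PAN+Pio, 5161 to 8275 CPM in PAN and 6682 to 9713 CPM in Sham, with 1 of 12 lower in PAN+MP against PAN and none in PAN+Pio. Against Sham, 5 of the 12 were lower in PAN+MP, 3 in PAN+Pio and 6 in PAN, where 1 was higher, with median log2 fold changes of -0.46, -0.47 and -0.38. Beside these, Pdgfb was called lower than in Sham in PAN+MP only. Gata3 and Pdgfd were called lower in both drug groups but not in PAN, and Cspg4 in PAN and PAN+MP but not in PAN+Pio. Platelet markers, 9 in the table, summed to 16.1 to 19.9 CPM in PAN+MP, 18.2 to 27.1 CPM in PAN+Pio, 18.2 to 27.0 CPM in PAN and 19.6 to 29.6 CPM in Sham, with 1 marker at 0 in each group. Markers of interstitial fibroblasts, cells that carry Pdgfra, summed to 413 to 557 CPM in PAN+MP, 536 to 757 CPM in PAN+Pio, 557 to 980 CPM in PAN and 397 to 606 CPM in Sham, with 5 of 9 higher in PAN against Sham. With their score as a covariate, an alternative added after the data had been seen, Pdgfd was lower in PAN+MP than in PAN by -0.71 ± 0.21 (SE, log2 scale, adjusted p of 0.0813) and Cspg4 lower in PAN than in Sham by -0.70 ± 0.22 (adjusted p of 0.213), and neither passed. Without the covariate these were -0.88 ± 0.14 and -0.64 ± 0.12. The score was 3.11 to 3.91 in PAN and 2.13 to 2.64 in Sham. Score and group can therefore hardly be told apart in that comparison. Beside the marker counts, 18.9% of all tested genes were called in PAN against Sham, 8.62% in PAN+MP against PAN and 3.68% in PAN+Pio against PAN. Against Sham the share was 12.7% in PAN+MP and 5.08% in PAN+Pio. For the macrophage, endothelial and platelet markers, their part in the results was not tested.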

How the data were processed

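Directional libraries were made from 350 ng of total RNA of isolated rat glomeruli after ribosomal and globin RNA had been removed, for 16 samples. Per the submitters' processing notes, cutadapt, STAR, HTSeq 0.6.1p1, DESeq2 and the build Rnor_6.0 were used. The role of each tool and the annotation are not given in the sources used here. Per the file headers, the deposited table holds raw read counts per gene and library, which were analysed here. It also holds 16 further per-library columns of normalized values, which were not used, and the authors' log2 fold changes and adjusted p-values, used only to compare calls. Columns name the group without a replicate number, so each was assigned to a group only, and the columns written "high" were taken as the PAN group, as the one PAN group without a drug. How the p-values deposited by the authors were adjusted is not given in the sources used here.

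Counts were tested with edgeR 4.0.16 in R 4.3.3. Low genes were removed by filterByExpr (minimum count 10), and libraries were scaled by TMM (factors of 0.952 to 1.05). A single quasi-likelihood fit to 16 libraries with 1 term per group gave 12 residual degrees of freedom, and 6 contrasts were adjusted by Benjamini-Hochberg over 17061 genes. Genes with an adjusted p under 0.05 are called. The SE is the log2 fold change over the square root of F. CPM uses TMM-adjusted library sizes, and log2 levels a prior count of 2. The common biological coefficient of variation over all genes was 19.4%. The test was tested on simulated data. Correlations were tested with 100000 two-sided permutations of libraries, which were not kept within groups. Alternatives were other filters, scalings, DESeq2 1.42.0, fits of 2 groups, left-out libraries and marker scores as covariates. The gene lists and members were chosen with earlier results of these data known. All 9 members were named, with up to 3 called genes of largest change per list and comparison, and the 3 genes most like each member. A gene that this rule would name is not reported here. Where a further gene is named, it was chosen after its values were seen. Levels are not compared between genes, since no transcript lengths were used, and the only coordinates given are those of the RefSeq promoter windows, in GRCr8, a build other than that of the counts. Parietal, distal nephron and T cell markers were also listed, with 0 to 2 called genes per list and comparison.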

Additional observations from a re-analysis of the deposited data

Results flagged for a closer look

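Of 36 sets of 4 libraries (9 genes in 4 groups), 2 held a library far from the other 3 of its group by Dixon's test, where chance flags about 1 in 20. Pdgfb was at 74.4 CPM in Sham library 4, and the nearest other Sham library was at 121 CPM. Thy1 was at 263 CPM in Sham library 3, where the nearest other Sham library was at 177 CPM. Without Sham library 4, Pdgfb in PAN+MP against Sham had a log2 fold change of -0.92, and without Sham library 3, Thy1 in PAN against Sham passed the test. For none of the 9 genes did PAN+Pio differ from PAN+MP at an adjusted p under 0.05 in the edgeR fit to 16 libraries.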

How the results depend on the processing

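No paired analysis was possible because the count columns carry no replicate numbers. The settings gave 972 values of the 54 log2 fold changes beside the main ones. Of these, 864 kept their direction and their side of the threshold, 39 no longer passed, 20 newly passed and 49 changed sign. None of the 49 was called before or after the change.

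The number of the 9 genes called (edgeR, adjusted p under 0.05) moved as follows, and the causes were not tested. In PAN against Sham it was 1, and 2 with the tubule score as covariate or without Sham library 3, PAN library 2 and PAN library 3. In PAN+MP against PAN it was 2, and 3 with DESeq2, in a fit of the 2 groups or with the tubule score, where Thy1 was added, and 3 without the 3 libraries, where Pdgfrb and Thy1 were added and Pdgfb was lost. In PAN+Pio against PAN it was 1, and 2 with DESeq2 or with the tubule score, and 0 without the 2 libraries whose columns carry an extra tag. In PAN+MP against Sham it was 4, and 2 with the tubule score. In PAN+Pio against Sham it was 2, and 3 with RLE size factors, library totals or DESeq2, where Cspg4 was added, and 1 with the tubule score, in a fit of the 2 groups, without the tagged libraries or without the 3 libraries named above. In PAN+Pio against PAN+MP it was 0, and 1 in a fit of the 2 groups. With the fibroblast score, which differs between the groups and widens the errors, it was 0 in PAN against Sham, PAN+MP against PAN, PAN+Pio against PAN and PAN+Pio against Sham, and 2 in PAN+MP against Sham. The fibroblast score and the removal of 3 libraries were chosen after seeing the data. With 1 library left out, the count was 1 to 2 in PAN against Sham, 1 to 3 in PAN+MP against PAN, 0 to 1 in PAN+Pio against PAN, 3 to 4 in PAN+MP against Sham, 0 to 3 in PAN+Pio against Sham and 0 in PAN+Pio against PAN+MP.

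The log2 fold changes that changed sign were up to 0.748 in size in the main fit, the largest being Pdgfra in PAN against Sham. Pdgfrb in PAN against Sham was -0.001 with RLE size factors and with DESeq2, -0.015 with library totals and -0.074 without the tagged libraries. Without the tagged libraries, Pdgfb was 0.012 in PAN+Pio against PAN, Pdgfa 0.019 in PAN+Pio against Sham and Thy1 0.006 in PAN+Pio against PAN+MP. With the tubule score, Pdgfb was 0.010 and Pdgfc -0.269 in PAN against Sham, Pdgfc -0.013 in PAN+MP against Sham, and Pdgfra 0.015 in PAN+MP against PAN, 0.063 in PAN+Pio against PAN and 0.048 in PAN+Pio against PAN+MP. With the fibroblast score, PAN against Sham gave 0.166 for Pdgfb, -0.108 for Pdgfc, -0.224 for Pdgfd and -0.907 for Pdgfra. It gave 1.035 for Pdgfra in PAN+MP against PAN, 0.288 for Pdgfra in PAN+Pio against PAN, -0.618 for Pdgfra and 0.022 for Pdgfb in PAN+Pio against Sham, and -0.089 for Pdgfc in PAN+Pio against PAN+MP. Pdgfa in PAN against Sham was -0.016 without the 3 libraries.

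With 1 library left out, PAN against Sham ranged over -0.149 to 0.248 for Pdgfrb, -0.099 to 0.123 for Pdgfd, -0.265 to 0.002 for Pdgfb and -0.055 to 0.491 for Pdgfc. PAN+MP against PAN ranged over -0.351 to 0.302 for Pdgfra and -0.066 to 0.464 for Pdgfc. PAN+Pio against PAN ranged over -0.206 to 0.027 for Pdgfb, -0.001 to 0.529 for Pdgfc and -0.415 to 0.238 for Pdgfra. PAN+Pio against Sham ranged over -0.113 to 0.032 for Pdgfa. PAN+Pio against PAN+MP ranged over -0.002 to 0.073 for Pdgfa, -0.059 to 0.007 for Thy1, -0.160 to 0.141 for Pdgfra and -0.034 to 0.141 for Pdgfc. The lowest count of the 9 genes was 63 reads, for Pdgfc in PAN library 2, where counting error is largest.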

Other observations

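The 9 genes differed less between libraries in the drug groups than in PAN or Sham. The coefficient of variation of Pdgfrb was 2.29% in PAN+MP, 4.81% in PAN+Pio, 22.1% in PAN and 32.9% in Sham (n = 4 each), and that of Thy1 was 5.54% in PAN+MP, 7.04% in PAN+Pio, 17.8% in PAN and 23.8% in Sham. For 8 of the 9 genes, Pdgfd being the exception, both drug groups had a smaller coefficient than both other groups, as had 29.6% of all tested genes. The tubule score ranged over 6.71 to 7.53 in PAN+MP, 6.63 to 7.23 in PAN+Pio, 5.59 to 7.98 in PAN and 5.85 to 6.93 in Sham. These spreads are given without a test.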
